A study of Mus musculus with 6 samples.

Results

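Transcript levels of 10 genes for the salvage and breakdown of purines and pyrimidines were examined in mouse colorectal tumors with and without *Trp53* in the intestinal epithelium. The genes were taken by name from the 54167 genes measured (*Hprt*, *Aprt*, *Adk*, *Ada*, *Pnp*, *Xdh*, *Upp1*, *Cda*, *Nt5e* and *Entpd1*), and all 10 were among the 15117 genes tested, which reached 1 TPM in 3 or more of the 6 tumors. TPM are transcript levels per unit of transcript length, scaled so that all tumors have an equal total, and they can be set side by side between genes. RNA was sequenced from 3 tumors of *Trp53fl/fl* mice, whose floxed *Trp53* alleles stay intact without Cre, and from 3 tumors of *VP* mice, which carry *Pvillin-Cre* with the same floxed alleles and lose *Trp53* where the villin promoter is active, in the intestinal epithelium. All mice had the C57BL/6J background. According to the methods, males of 8 weeks were given the carcinogen azoxymethane (AOM) at 10 mg/kg and 3 courses of 2.5% dextran sulfate sodium (DSS) in drinking water for 7 days each, which inflames the colon, and tumors were evaluated on day 98. The controls thus share the floxed alleles, the AOM and the DSS, and no tumor with *Pvillin-Cre* alone is among these samples. Stromal and immune cells of a *VP* tumor keep *Trp53*. The title of the series names purine metabolism as a process that p53 represses, and the comparison asks how the transcripts of the salvage and breakdown arms stood in the 2 genotypes. Transcript levels do not measure protein, its modification, enzyme activity or nucleotide levels, so they do not test that title.

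Cells build nucleotides either de novo or by salvage, in which free bases and nucleosides are turned back into nucleotides. Purine nucleosides that are not salvaged are deaminated and split to bases and then oxidized to uric acid, while pyrimidine nucleosides are deaminated and split to uracil or thymine and then opened. Outside the cell, ectoenzymes take ATP down to adenosine, which cells sense through receptors and take up through transporters, and in the colon this extracellular route is known for its role in inflammation.

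*Trp53* was at 124.9, 99.3 and 147.5 TPM in the *Trp53fl/fl* tumors, against 38.5, 32.8 and 27.8 TPM in the *VP* tumors. Its log2 fold change was -1.87, with an adjusted p of 0.0207 in limma. *Trp53* was lower in *VP* tumors in all 14 alternative settings, but the adjusted limma p was 0.0883 with the replicate number as a block, 0.104 without a filter on low values, and 0.0986, 0.0553, 0.0583 and 0.0938 without *Trp53fl/fl* replicate 1, *Trp53fl/fl* replicate 3, *VP* replicate 1 and *VP* replicate 2. The epithelial marker list was present in all 6 tumors, with sums of 12 genes from 10863 to 11332 TPM in *Trp53fl/fl* and from 12356 to 13517 TPM in *VP* tumors. Correlations of log2(TPM + 1) over the genes tested ran from 0.959 to 0.974 between tumors of the same genotype and from 0.948 to 0.970 between genotypes, and no pair of tumors held identical values. Nothing in the labels says that each tumor came from a mouse of its own, so p-values measure the spread between these tumors. In bulk tumors, fewer cells of a type and less RNA per cell cannot be told apart.

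The 10 genes covered a wide range of levels. Averaged over the 6 tumors, *Aprt* was highest at 289 TPM, followed by *Hprt* at 110.2, *Pnp* at 109, *Upp1* at 71.8, *Adk* at 56.8, *Nt5e* at 48.6, *Cda* at 40.1, *Xdh* at 36.8, *Entpd1* at 23.6 and *Ada* at 11.98 TPM. Only *Aprt* stood clear of its neighbour in this order, since its lowest tumor (256.8 TPM) lay above the highest tumor of *Hprt* (128.4 TPM). Each of the other genes overlapped the next one in its range over tumors.

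**Figure D1:**
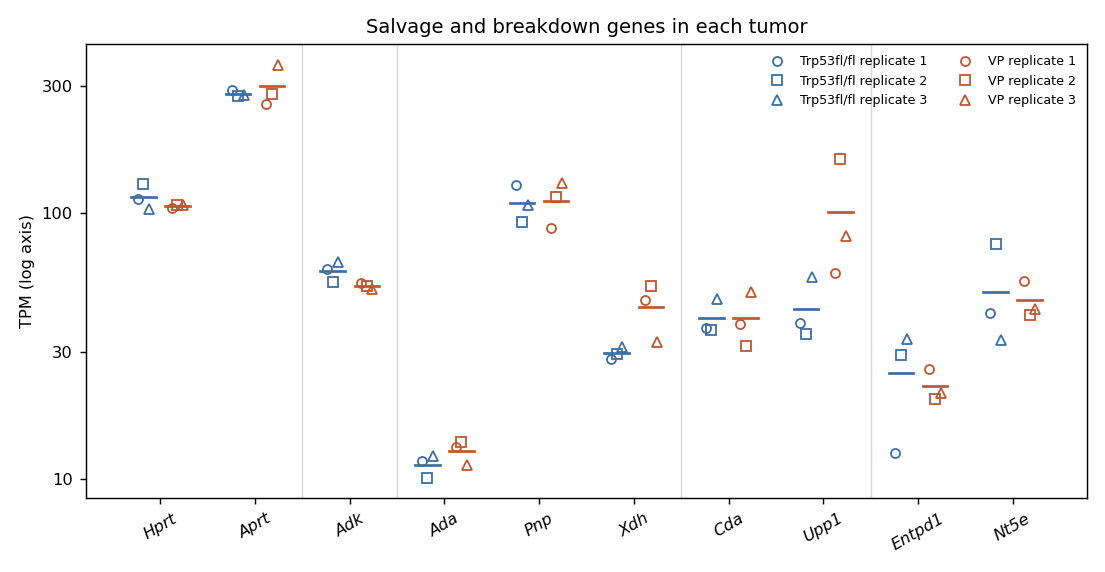
TPM on a log axis for the 10 genes in each tumor, blue for *Trp53fl/fl* and orange for *VP*, with a marker shape for each replicate and a line at the mean of 3 tumors. The markers of *Upp1* and *Xdh* separate with *VP* higher and those of *Adk* with *VP* lower, while the other 7 genes overlap between genotypes.

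Of the 10 genes, 0 passed an adjusted p of 0.05 in limma, where 25 of the 15117 genes tested (0.165%) did. *Upp1*, the uridine phosphorylase that splits uridine to uracil, and *Xdh*, the xanthine dehydrogenase that makes uric acid, were higher in each *VP* tumor than in any *Trp53fl/fl* tumor, and both had an unadjusted p under 0.05, against 12.5% of all genes tested in either direction and 4.51% with *VP* higher. Of the 15117 genes, 1210 (8%) had an unadjusted p under 0.05 with *VP* lower. *Adk* was lower in each *VP* tumor than in any *Trp53fl/fl* tumor. The genotypes thus did not overlap for 3 of the 10 genes (2 with *VP* higher, 1 with *VP* lower), where 19.3% of all genes tested did not overlap (6.03% with *VP* higher, 13.3% with *VP* lower). By sign alone 5 of the genes were higher in *VP* tumors and 5 were lower, with a median log2 fold change of -0.0017 beside a median of -0.07 over all genes tested. Among the 15117 genes, 5930 were higher and 9187 were lower by sign.

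**Figure D2:**
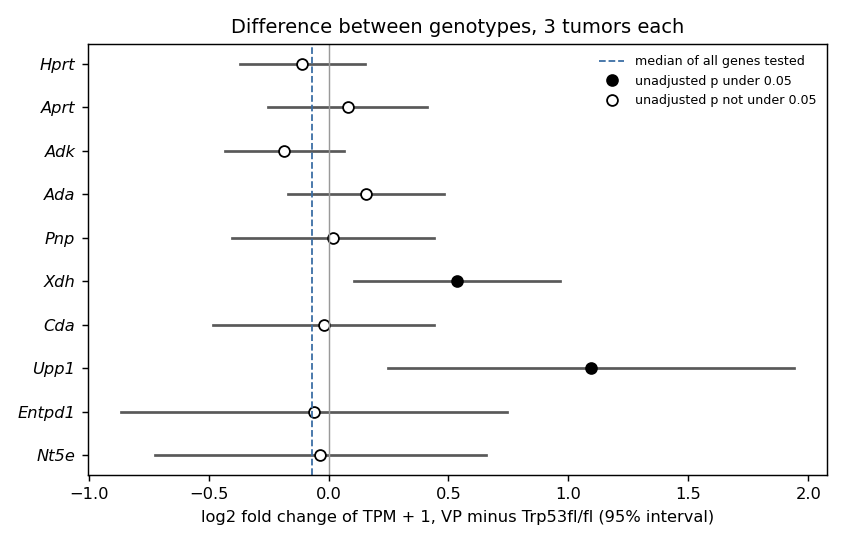
Log2 fold change of TPM + 1, *VP* minus *Trp53fl/fl*, for each of the 10 genes, with the 95% interval of the limma fit on 3 tumors per genotype. The intervals of *Upp1* (0.25 to 1.94) and *Xdh* (0.11 to 0.96) lie above 0, the other 8 span it, and the dashed line marks the median of all genes tested at -0.07.

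The 250 bases before each annotated start were read from RefSeq promoters of GRCm38.p6, where 9 of the 10 genes had an entry, with 13 windows in all. The windows of *Upp1* and of *Hprt* are shown because they belong to the gene with the largest difference between genotypes and to one that overlapped, and both hold the GC box GGGCGG that most of the 10 genes have. Capitals mark this motif on the strand printed, and the last base is the one before the start. The *Upp1* window is chr11:9117758-9118007 (plus strand), the first of 3 entries for this gene, and the *Hprt* window is chrX:52987828-52988077 (plus strand).
*Upp1*: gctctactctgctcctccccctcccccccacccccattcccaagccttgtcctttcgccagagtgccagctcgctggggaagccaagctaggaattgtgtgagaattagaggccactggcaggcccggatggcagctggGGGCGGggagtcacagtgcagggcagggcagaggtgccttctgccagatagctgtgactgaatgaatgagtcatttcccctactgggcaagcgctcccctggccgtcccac
*Hprt*: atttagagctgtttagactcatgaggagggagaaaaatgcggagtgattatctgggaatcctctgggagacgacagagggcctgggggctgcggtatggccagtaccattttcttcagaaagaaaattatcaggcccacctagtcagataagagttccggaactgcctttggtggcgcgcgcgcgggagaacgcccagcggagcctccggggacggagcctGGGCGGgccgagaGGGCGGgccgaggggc
The *Upp1* window holds 1 GC box, 105 bases before the start, and the *Hprt* window holds 2, at 23 and 10 bases before it. The *Upp1* entry at chr11:9117853-9118102 overlaps the printed window and holds the same box, and the entry at chr11:9118257-9118506 holds none. Searched on both strands, GGGCGG was found in 8 of the 9 genes with an entry, all but *Entpd1*, and in 10 of the 13 windows, where 32.7% of all 32851 promoters of the table hold it. The windows of 1 gene can overlap, and the 13 windows had a GC content from 46.8% to 75.2%, beside a median of 52.4% over all promoters. CCAAT was found in *Ada*, *Adk*, *Entpd1* and *Pnp* (33.8% of all promoters), TTCNNNGAA in *Ada* (7.02%), and neither TATAAA (12.4%) nor the p53 half-site motif (7.13%) in any of the 9. A match says only that the letters are there, and *Xdh* had no entry. The lack of a match covers only these 250 bases and this exact form of the motif, in 13 windows. It says nothing of sites elsewhere in or near a gene.

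*Upp1*, of which 1 promoter window is printed above, showed the largest difference of the 10. It was at 38.3, 35.0 and 57.1 TPM in the *Trp53fl/fl* tumors, against 59.5, 158.9 and 81.9 TPM in the *VP* tumors. *VP* replicate 2 was far above the other tumors, and the lowest *VP* tumor lay just above the highest *Trp53fl/fl* tumor. The means were 43.5 ± 11.9 TPM (SD, n = 3) and 100.1 ± 52.1 TPM (SD, n = 3). The fitted log2 fold change was 1.09 (SE 0.36), that is 2.14-fold with a 95% interval from 1.19 to 3.84, at an unadjusted p of 0.0181 and an adjusted p of 0.331 in limma. Among all genes tested, 1.31% had a higher log2 fold change. Leaving out *VP* replicate 2 gave a log2 fold change of 0.70, at an unadjusted limma p of 0.0290, and without *Trp53fl/fl* replicate 1 or replicate 2 the unadjusted p was 0.0512 or 0.0618.

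*Xdh*, the molybdenum enzyme that oxidizes hypoxanthine and xanthine at the end of purine breakdown, was at 28.1, 29.4 and 31.2 TPM in the *Trp53fl/fl* tumors, against 46.9, 52.9 and 32.6 TPM in the *VP* tumors. The *Trp53fl/fl* tumors lay close together, *VP* replicates 1 and 2 were well above them, and *VP* replicate 3 exceeded the highest of them by a small margin. Means were 29.6 ± 1.52 TPM (SD, n = 3) and 44.1 ± 10.4 TPM (SD, n = 3), and the log2 fold change was 0.54 (SE 0.18), or 1.45-fold with a 95% interval from 1.08 to 1.95, at an unadjusted p of 0.0213 and an adjusted p of 0.341 in limma. A higher log2 fold change was found for 4.65% of all genes tested. The unadjusted p was 0.0630 without *Trp53fl/fl* replicate 1, 0.0659 without *VP* replicate 1 and 0.0709 without *VP* replicate 2. Centring each tumor on the epithelial marker genes gave a log2 fold change of 0.35 for *Xdh*, at an unadjusted limma p of 0.0822, with the median of all genes at -0.25 on that scale.

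**Figure D3:**
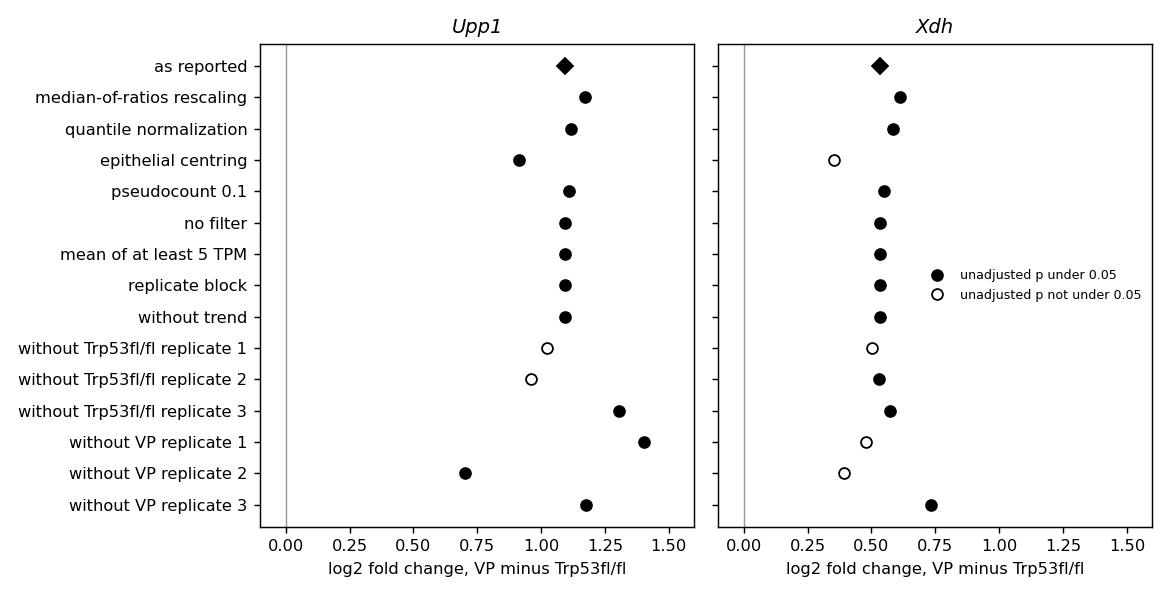
Log2 fold change, *VP* minus *Trp53fl/fl*, of *Upp1* and *Xdh* as reported and in 14 alternative settings, filled where the unadjusted p was under 0.05. All values lie above 0, between 0.70 and 1.40 for *Upp1* and between 0.35 and 0.73 for *Xdh*.

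The summed levels of the neutrophil, epithelial and endothelial marker lists did not overlap between genotypes, with *VP* higher, as for *Upp1* and *Xdh*. Of the 13 neutrophil genes 11 were tested, and all 11 were higher in *VP* tumors by sign, though *Csf3r*, *Ly6g* and *Mmp9* overlapped between genotypes. Of the 11, 8 had an unadjusted limma p under 0.05 and 1, *Ngp*, an adjusted p under 0.05. The neutrophil list summed to between 407 and 735 TPM in *Trp53fl/fl* tumors and between 1233 and 2059 TPM in *VP* tumors. *Camp* was at 0 in the *Trp53fl/fl* tumors, against 3.15, 2.53 and 6.14 TPM in the *VP* tumors. *Mpo* and *Elane* did not reach the filter. *Mpo* was at 0.36, 0 and 0.2 TPM in the *Trp53fl/fl* tumors, against 0, 0.22 and 0.03 TPM in the *VP* tumors. *Elane* was above 0 only in *VP* replicate 2, at 0.08 TPM. Of the epithelial list, 11 of 12 genes were higher in *VP* tumors by sign, 3 with an unadjusted limma p under 0.05. These 3, *Krt19*, *Cldn7* and *Lgals4*, did not overlap between genotypes, and the other genes of the list did. *Epcam*, *Krt18*, *Cdh1* and *Cdx2* had log2 fold changes of 0.003, 0.004, 0.02 and -0.009. The summed levels of 6 further lists overlapped between genotypes. For mature colonocytes they were 932 to 996 TPM in *Trp53fl/fl* and 741 to 1316 TPM in *VP* tumors (1 of 9 genes lower at an unadjusted p under 0.05), for macrophages 1274 to 1374 and 1122 to 1563 TPM (2 of 10 higher), and for fibroblasts 891 to 988 and 764 to 1092 TPM (2 of 8 lower). For T cells they were 22.7 to 28.1 and 11.6 to 27.1 TPM, for B and plasma cells 432 to 847 and 399 to 899 TPM and for smooth muscle 488 to 809 and 415 to 1347 TPM, with 0 genes of these 3 lists at an unadjusted p under 0.05 in limma. The endothelial list summed to 93.7 to 114.5 TPM in *Trp53fl/fl* and 115.6 to 123.3 TPM in *VP* tumors, with 1 of 8 genes at an unadjusted limma p under 0.05. That gene, *Vwf*, did not overlap between genotypes, and the other genes of the list did. All 8 cycling genes were lower in *VP* tumors by sign, 2 with an unadjusted limma p under 0.05. The sums of the cycling list, 451 to 563 TPM in *Trp53fl/fl* and 363 to 476 TPM in *VP* tumors, overlapped. For comparison, of all 15117 genes tested 5930 were higher and 9187 lower in *VP* tumors by sign. At an unadjusted limma p under 0.05, 4.51% of all genes tested were higher and 8% lower. The part of these cell types in the levels of *Upp1* and *Xdh* was not tested.

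The base salvage enzymes *Hprt* and *Aprt* join hypoxanthine, guanine or adenine to phosphoribosyl pyrophosphate in a single step. *Hprt* was at 112.6, 128.4 and 102.8 TPM in the *Trp53fl/fl* tumors, against 103.9, 106.9 and 106.5 TPM in the *VP* tumors. The *VP* tumors fell within the range of the *Trp53fl/fl* tumors, and the log2 fold change of -0.11 had a 95% interval from -0.37 to 0.15 (limma adjusted p = 0.688). *Aprt* was at 289.2, 273.9 and 276.3 TPM in the *Trp53fl/fl* tumors, against 256.8, 279.9 and 359.5 TPM in the *VP* tumors. Here the *VP* tumors spread to both sides of the *Trp53fl/fl* tumors, with *VP* replicate 3 highest and *VP* replicate 1 lowest (log2 fold change 0.08, 95% interval -0.25 to 0.41, limma adjusted p = 0.826). The sum of both enzymes was 394 ± 13.2 TPM (SD, n = 3) in *Trp53fl/fl* and 404.5 ± 54.9 TPM (SD, n = 3) in *VP* tumors.

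*Adk*, the kinase that phosphorylates adenosine to AMP, was at 61.5, 54.8 and 65.2 TPM in the *Trp53fl/fl* tumors, against 54.4, 52.8 and 51.8 TPM in the *VP* tumors. All *VP* tumors were lower, but *VP* replicate 1 and *Trp53fl/fl* replicate 2 were less than 1 TPM apart. The log2 fold change was -0.18 (SE 0.11, 95% interval -0.43 to 0.06, unadjusted p = 0.123, adjusted p = 0.496 in limma). *Adk* had the lowest log2 fold change of the 10 genes, and it stayed negative in all 14 alternative settings, between -0.37 and -0.11. The unadjusted limma p of *Adk* was 0.0448 without *Trp53fl/fl* replicate 2 and 0.0173 after epithelial centring, which lowers the log2 fold change of every gene by the same amount.

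*Ada* and *Pnp* act in sequence on purine nucleosides, *Ada* by turning adenosine into inosine and *Pnp* by splitting inosine and guanosine to the base. *Ada* was at 11.6, 10.1 and 12.1 TPM in the *Trp53fl/fl* tumors, against 13.1, 13.7 and 11.2 TPM in the *VP* tumors. *VP* replicates 1 and 2 were above all *Trp53fl/fl* tumors and *VP* replicate 3 was not, for a log2 fold change of 0.16 (95% interval -0.17 to 0.48, limma adjusted p = 0.646). *Pnp* was at 126.4, 91.8 and 107.1 TPM in the *Trp53fl/fl* tumors, against 87.7, 114.4 and 128.6 TPM in the *VP* tumors. The ranges of the genotypes nearly coincided (log2 fold change 0.02, 95% interval -0.40 to 0.44, limma adjusted p = 0.975). *Pnp* has a close paralog next to it, *Pnp2*, between which reads may have been split, and *Pnp2* was at 22.1, 29.8 and 17.7 TPM in the *Trp53fl/fl* tumors, against 17.5, 26.2 and 29.1 TPM in the *VP* tumors. The sum of *Pnp* and *Pnp2* overlapped as well, with 132 ± 14.7 TPM (SD, n = 3) in *Trp53fl/fl* and 134 ± 26.8 TPM (SD, n = 3) in *VP* tumors.

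*Cda* deaminates cytidine and deoxycytidine to uridine and deoxyuridine, the step before uridine phosphorylase. It was at 36.9, 36.1 and 47.4 TPM in the *Trp53fl/fl* tumors, against 38.1, 31.4 and 50.4 TPM in the *VP* tumors. The *VP* tumors held both the lowest and the highest value, and the log2 fold change was -0.02 (95% interval -0.48 to 0.44, limma adjusted p = 0.973). The 5 breakdown enzymes *Ada*, *Pnp*, *Xdh*, *Upp1* and *Cda* summed to 241.4, 202.4 and 254.9 TPM in the *Trp53fl/fl* tumors and to 245.3, 371.2 and 304.7 TPM in the *VP* tumors. *VP* replicate 1 was below the highest *Trp53fl/fl* tumor in this sum, so the genotypes overlapped. Without *Upp1* the sums were 189 ± 19.3 TPM (SD, n = 3) and 207 ± 19.1 TPM (SD, n = 3) and overlapped too.

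At the cell surface, *Entpd1* (CD39) takes ATP and ADP to AMP and *Nt5e* (CD73) takes AMP to adenosine. *Entpd1* was at 12.5, 29.02 and 33.5 TPM in the *Trp53fl/fl* tumors, against 25.8, 20.0 and 21.0 TPM in the *VP* tumors. *Trp53fl/fl* replicate 1 was the lowest of the 6 and *Trp53fl/fl* replicate 3 the highest, and the log2 fold change of -0.06 had a wide 95% interval from -0.86 to 0.75 (limma adjusted p = 0.955). Without *Trp53fl/fl* replicate 1 the log2 fold change of *Entpd1* was -0.48, at an unadjusted limma p of 0.0297. *Nt5e* was at 42.0, 76.1 and 33.2 TPM in the *Trp53fl/fl* tumors, against 55.5, 41.2 and 43.4 TPM in the *VP* tumors. Again the *Trp53fl/fl* tumors held the highest and the lowest value, with a log2 fold change of -0.03 and a 95% interval from -0.72 to 0.66 (limma adjusted p = 0.970). As fold changes the intervals ran from 0.550 to 1.68 for *Entpd1* and from 0.606 to 1.58 for *Nt5e*, and differences within them were not detectable with these tumors.

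The other genes of nucleotide metabolism were grouped in 8 lists by pathway, and 0 of the 104 tested passed an adjusted p of 0.05 in limma. At an unadjusted p under 0.05 there were 8 of them, 4 with *VP* higher and 4 with *VP* lower. This share of 7.69% (3.85% in each direction) lay below the 12.5% of all genes tested (4.51% with *VP* higher and 8% with *VP* lower), so the lists held no more such genes than the background. For the other enzymes of purine salvage and breakdown, 21 of 24 genes were tested, of which 0 had an unadjusted limma p under 0.05, and their median log2 fold change was 0.09. The highest of them was *Nt5c*, a cytosolic nucleotidase, at 175 ± 10.6 TPM (SD, n = 3) in *Trp53fl/fl* and 184 ± 28.6 TPM (SD, n = 3) in *VP* tumors. *Urad*, which acts in the further breakdown of uric acid, was at 0 in all 6 tumors, and *Ampd1* and *Nt5c1b* did not reach the filter.

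**Figure D4:**
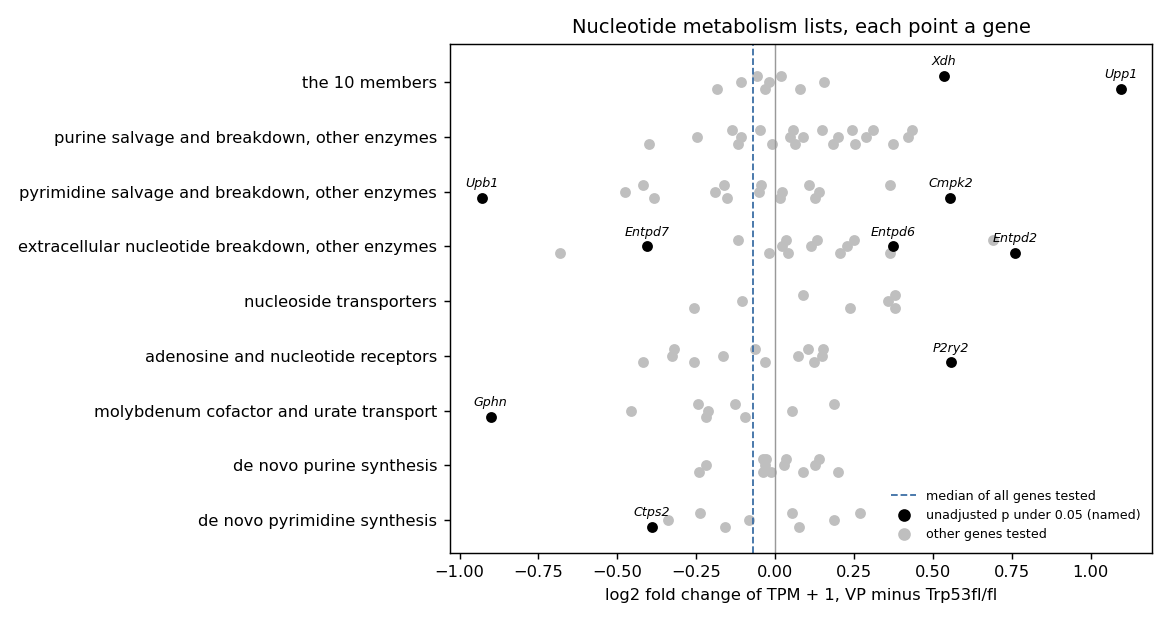
Log2 fold change of TPM + 1, *VP* minus *Trp53fl/fl*, for every gene tested in the 10-gene set and in 8 further lists of nucleotide metabolism, with each gene a point. Black points have an unadjusted p under 0.05 and are named, grey points do not, and the dashed line is the median of all genes tested at -0.07.

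Among the other pyrimidine enzymes, 16 of 18 genes were tested, with 1 higher and 1 lower in *VP* tumors at an unadjusted p under 0.05 and a median log2 fold change of -0.05. *Upb1*, which makes beta-alanine from the opened uracil ring at the end of the pathway that *Upp1* feeds, was at 12.6, 10.4 and 10.4 TPM in the *Trp53fl/fl* tumors, against 5.86, 5.41 and 4.84 TPM in the *VP* tumors. It was lower in each *VP* tumor, with a log2 fold change of -0.93 (SE 0.15, unadjusted p = 3.51e-04, adjusted p = 0.106 in limma). *Dpyd* and *Dpys*, the enzymes between *Upp1* and *Upb1*, did not reach the filter. *Cmpk2*, the mitochondrial UMP and CMP kinase, was at 6.59, 7.46 and 6.93 TPM in the *Trp53fl/fl* tumors, against 11.99, 12.8 and 8.05 TPM in the *VP* tumors. As for *Xdh*, *VP* replicates 1 and 2 were well above and *VP* replicate 3 just above the *Trp53fl/fl* tumors (log2 fold change 0.56, SE 0.19, adjusted p = 0.340 in limma). The highest of the list was its cytosolic relative *Cmpk1*, which overlapped between genotypes (99.1 ± 12.6 and 95.9 ± 10.6 TPM, SD, n = 3 each).

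The list of other genes for extracellular nucleotide breakdown also holds family members that act inside the cell, *Entpd7* among them. Of its 18 genes, 16 were tested, with 2 higher and 1 lower in *VP* tumors at an unadjusted p under 0.05 and a median log2 fold change of 0.12. *Entpd2*, an ectoenzyme that takes ATP mainly to ADP, was at 7.15, 8.28 and 6.58 TPM in the *Trp53fl/fl* tumors, against 15.8, 12.9 and 10.9 TPM in the *VP* tumors. It was higher in each *VP* tumor, unlike its relative *Entpd1* (log2 fold change 0.76, SE 0.17, unadjusted p = 0.0028, adjusted p = 0.243 in limma), and the difference between these genes was not tested. *Entpd6*, a secreted or Golgi nucleoside diphosphatase, was at 15.3, 14.8 and 17.6 TPM in the *Trp53fl/fl* tumors, against 22.7, 22.7 and 17.6 TPM in the *VP* tumors, and *VP* replicate 3 overlapped (log2 fold change 0.37, adjusted p = 0.376 in limma). *Entpd7*, an intracellular member of the family, was at 6.12, 7.25 and 6.34 TPM in the *Trp53fl/fl* tumors, against 4.99, 4.55 and 4.57 TPM in the *VP* tumors, lower in each *VP* tumor (log2 fold change -0.41, adjusted p = 0.341 in limma). *Cd38*, which breaks down NAD and was the highest of the list, overlapped between genotypes with 75.9 and 87.6 TPM on average.

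**Figure D5:**
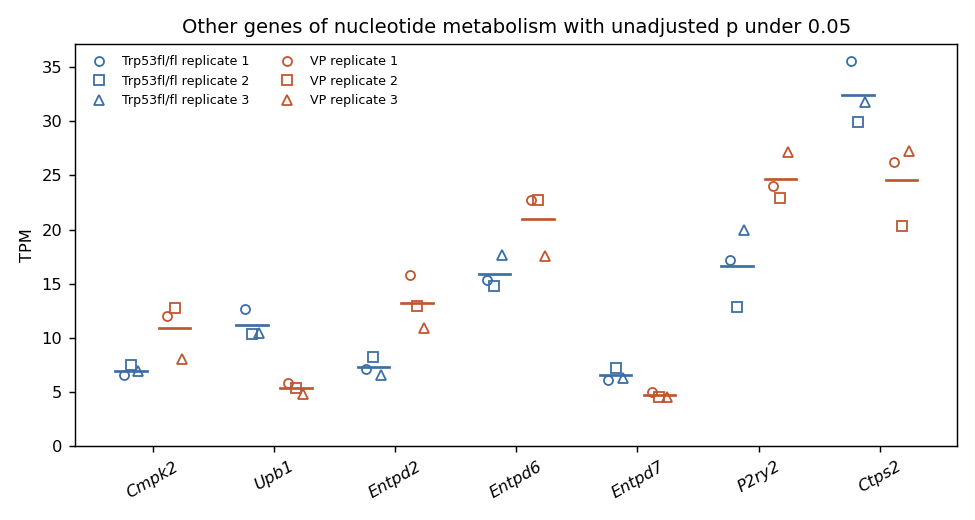
TPM in each tumor for the pathway genes with an unadjusted p under 0.05, blue for *Trp53fl/fl* and orange for *VP*, with a line at the mean of 3 tumors. *Gphn*, whose lowest tumor had 894.6 TPM, is not drawn, and *Entpd6* is the gene whose genotypes overlap, by *VP* replicate 3.

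The list of receptors for adenosine and nucleotides also holds *Panx1* and *P2ry10*, which are not such receptors. Of its 20 genes 13 were tested, 1 was higher at an unadjusted p under 0.05, and the median log2 fold change was -0.03. *P2ry2*, a receptor for extracellular ATP and UTP, was at 17.2, 12.9 and 19.9 TPM in the *Trp53fl/fl* tumors, against 24.1, 22.9 and 27.1 TPM in the *VP* tumors. Each *VP* tumor was higher, with a log2 fold change of 0.56 (SE 0.17, unadjusted p = 0.0142, adjusted p = 0.317 in limma). *P2rx4*, the ATP-gated channel that was highest in the list, overlapped between genotypes. The adenosine receptors *Adora2b* and *Adora3* did not reach the filter, and *Adora1* and *Adora2a* did, at no more than 3.12 TPM. Among the nucleoside transporters, 7 of 8 genes were tested, 0 had an unadjusted limma p under 0.05, and the median log2 fold change was 0.24. The highest, the equilibrative transporter *Slc29a1*, was at 33.1 ± 5.15 TPM (SD, n = 3) in *Trp53fl/fl* and 39.5 ± 8.69 TPM (SD, n = 3) in *VP* tumors.

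*Xdh* needs the molybdenum cofactor, and the list for this cofactor and for urate transport had 9 of 11 genes tested, 1 of them lower at an unadjusted p under 0.05, with a median log2 fold change of -0.21. *Gphn*, gephyrin, which inserts molybdenum into the cofactor and also anchors inhibitory receptors in neurons, was at 2206.7, 1829.1 and 1684.8 TPM in the *Trp53fl/fl* tumors, against 894.6, 1072.1 and 1086.4 TPM in the *VP* tumors. It was lower in each *VP* tumor (log2 fold change -0.90, SE 0.15, unadjusted p = 4.68e-04, adjusted p = 0.114 in limma), the opposite direction to *Xdh*. In these tumors *Gphn* also lay far above every one of the 10 genes. Its mean over the 6 tumors was 1462 TPM, beside 1369 TPM for the epithelial marker *Epcam*. TPM do not tell from which part of the gene its reads came, so these values may not stand for gephyrin mRNA. A link between *Gphn* and *Xdh* was not tested. The urate transporters *Abcg2* and *Slc2a9* overlapped between genotypes, and *Slc22a12* was at 0 in all 6 tumors.

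The de novo routes were set beside the salvage genes. All 13 genes of de novo purine synthesis were tested, 0 had an unadjusted limma p under 0.05, and their median log2 fold change was -0.01. *Impdh2*, the IMP dehydrogenase that leads to GMP and the highest of the list with *Paics* close to it, overlapped between genotypes with 138 ± 19.2 and 151 ± 18.6 TPM (SD, n = 3 each). All 9 genes of de novo pyrimidine synthesis and deoxynucleotide formation were tested, 1 was lower at an unadjusted p under 0.05, and the median was -0.08. That gene, *Ctps2*, a CTP synthase, was at 35.6, 29.9 and 31.8 TPM in the *Trp53fl/fl* tumors, against 26.3, 20.3 and 27.3 TPM in the *VP* tumors, with no overlap (log2 fold change -0.39, unadjusted p = 0.0309, adjusted p = 0.360 in limma). *Tyms*, the thymidylate synthase and the highest of the list, overlapped.

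The genes whose log2(TPM + 1) followed *Upp1* and *Xdh* most closely over the 6 tumors were looked up among 11444 genes with a mean of at least 5 TPM. For *Upp1* they were *Ifi27l2a* (Pearson r = 0.994), *Nlrx1* (r = 0.990) and *Snf8* (r = 0.987). *Ifi27l2a*, an interferon-induced gene, was at 70.2, 63.4 and 108.8 TPM in the *Trp53fl/fl* tumors, against 103.8, 224.2 and 128.7 TPM in the *VP* tumors, highest in *VP* replicate 2 as *Upp1* was. For *Xdh* they were *Sra1* (r = 0.999), *Phf11d* (r = 0.994) and *B3galt5* (r = 0.994). *B3galt5*, a galactosyltransferase, was at 74.7, 78.5 and 85.0 TPM in the *Trp53fl/fl* tumors, against 123.5, 134.7 and 81.7 TPM in the *VP* tumors, so that *VP* replicate 3 fell among the *Trp53fl/fl* tumors. The 6 points come from 2 genotypes and share the total to which TPM are scaled, and 50 genes exceeded r = 0.95 with *Upp1* and 59 with *Xdh*. *Upp1* and *Xdh* themselves had r = 0.779.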

How the data were processed

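Transcripts of 3 *Trp53fl/fl* and 3 *VP* tumors, induced by AOM and DSS, were analysed by RNA-seq. Tumors were grouped by the titles in the sample labels. The authors selected poly(A) RNA and made paired-end reads, and the TPM values they deposited for each gene have 2 decimals. The submitters' processing notes name HISAT2, StringTie and the build mm9, without versions. The annotation is not given in the sources used here. TPM keep no number of reads, so depth and counting error are unknown, and scaling to a fixed total makes each value depend on all other genes. From the deposited TPM, log2(TPM + 1) was tested with limma 3.58.1 in R 4.3.3 (empirical Bayes with trend, Benjamini-Hochberg adjustment over all 15117 genes that reached 1 TPM in 3 or more tumors). Fold changes on this scale understate those of low genes. The procedure was also run on simulated data with noise drawn separately for each gene. Such data hold neither the fixed total of TPM nor differences in cell types, so they are no evidence for the results above.

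The genes named are the 10 salvage and breakdown genes, *Trp53*, in each pathway list the gene with the highest mean and those with an unadjusted p under 0.05, and the 3 genes most correlated with each of the 2 members of smallest p. Genes of these lists that are named only for their place in the pathway were chosen after their values were seen. The members and lists were chosen with earlier results of these data known. Promoters came from RefSeq. The alternatives were a pseudocount of 0.1, quantile normalization, rescaling by median of ratios, centring on 12 epithelial genes, no filter, a mean of at least 5 TPM, the replicate number as a block, no trend, and each of the 6 tumors left out.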

Additional observations from a re-analysis of the deposited data

How the results depend on the processing

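In the 14 alternative settings, 0 of the 10 genes passed an adjusted limma p of 0.05, with adjusted p from 0.155 to 0.670 for *Upp1* and from 0.133 to 0.682 for *Xdh*. *Upp1* and *Xdh* stayed higher in *VP* tumors in all 14, with an unadjusted p under 0.05 in 12 and in 10 of them. The number of the 10 genes with an unadjusted p under 0.05 was 1 to 2 when a single tumor was left out, where 7.48% to 16.1% of all genes tested had one. It was 3 after epithelial centring (*Upp1*, and with *VP* lower *Hprt* and *Adk*), where 27.8% of all genes had one, 1.88% with *VP* higher and 25.9% with *VP* lower. This centring shifts the log2 fold change of every gene by -0.18. The direction of the background also depended on the scaling. With median-of-ratios rescaling 6.99% of all genes tested had an unadjusted limma p under 0.05 with *VP* higher and 4.63% with *VP* lower. With quantile normalization these shares were 6.07% and 5.30%.

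The genes passing adjustment went from 25 (12 higher in *VP* tumors) to 44 (12 higher) with epithelial centring, 20 (12 higher) with median-of-ratios rescaling, 29 (15 higher) with quantile normalization, 7 without a filter and 10 with the replicate block, and to between 6 and 28 with a tumor left out (6 without *VP* replicate 2). *Trp53* had an adjusted p of 0.104 without a filter and of 0.0883 with the replicate block. The median of all genes was -0.25 after epithelial centring and -0.07 in the analysis reported. The median log2 fold change of the 10 genes was 0.076 with median-of-ratios rescaling and -0.18 with epithelial centring, and between -0.042 and 0.086 when a tumor was left out. Epithelial centring brought 1 other pyrimidine gene past adjustment, *Upb1* at -1.11 (limma adjusted p = 0.0480). The 8 named pathway genes with an unadjusted p under 0.05 did not change sign in the 14 settings, and that p held in all 14 for *Upb1*, *Entpd2* and *Gphn*, in 13 for *P2ry2*, in 10 for *Cmpk2*, in 9 for *Entpd7* and *Ctps2* and in 8 for *Entpd6*.

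Median-of-ratios rescaling gave log2 fold changes of 0.056 for *Cda*, 0.043 for *Nt5e*, 0.016 for *Entpd1* and 0.033 for *Cmpk1*, and quantile normalization gave -0.0040 for *Pnp*, 0.022 for *Cda* and 0.013 for *Entpd1*. By its constant shift, which turns every value between 0 and that size, epithelial centring gave -0.10 for *Aprt*, -0.026 for *Ada*, -0.16 for *Pnp*, -0.12 for *Nt5c*, -0.032 for *P2rx4* and -0.054 for *Impdh2*. With a tumor left out, values ran from -0.061 to 0.18 for *Aprt*, -0.10 to 0.17 for *Pnp*, -0.20 to 0.14 for *Cda*, -0.28 to 0.30 for *Nt5e*, -0.48 to 0.20 for *Entpd1*, -0.046 to 0.18 for *Nt5c*, -0.13 to 0.049 for *Cmpk1* and -0.26 to 0.0028 for *Tyms*. The cause of the changes with a tumor left out or with quantile normalization was not tested.

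Whether the replicate numbers of the labels pair the tumors could not be decided. Deviations of same-numbered tumors from their genotype means correlated at 0.02, -0.05 and 0.02, and those of differently numbered tumors at -0.11 to 0.095. With 3 tumors per genotype these correlations depend on each other and cannot exclude a pairing. With the replicate block, 10 genes passed adjustment, and of the 10 salvage and breakdown genes 0 did and 2 had an unadjusted p under 0.05, as without it. In that setting 10.9% of all genes tested had such a p, 4.12% with *VP* higher and 6.78% with *VP* lower. Precision is limited by 3 tumors per genotype and by values that carry no read counts.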
